A study of Schizosaccharomyces pombe with 6 samples.

Results

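The libraries described here compare newly made RNA of the fission yeast Schizosaccharomyces pombe 2.5 h into depletion of the elongation factor Spt5 with newly made RNA of the same strain at 0 h. All units of the deposited annotation were used, with no choice by outcome, and the text gives single protein-coding genes and pathways other than those tied to thiamine. These are 4 of the 6 libraries of the series, 2 from 2.5 h and 2 from 0 h. The 2 libraries of 4.5 h enter only the filter on low counts, the scaling and the estimate of the spread. Of 5484 transcription units 5208 had enough counts to be tested, and 4436 of these held protein-coding genes, out of 4447 coding units in all. Both 2.5 h cultures had received thiamine and the auxin NAA 2.5 h before labelling; both 0 h cultures were labelled when the additions were made. Labelling was with 4-thiouracil at 5 mM for 10 min in each case, and the labels name the libraries of a time point as biological replicates without saying which culture gave which. Every culture was of the h- strain ASP167, in which the promoter Pnmt81 drives spt5 and its protein ends in V5-IAA17 (markers hphMX6 and kanMX6), the ade6 locus holds ade6+ with Padh15-driven skp1-OsTIR1 and Padh15-driven skp1-AtTIR1-2NLS-9myc (marker natMX6), and ura4-D18 is present. Thiamine shuts the promoter and NAA sends the tagged protein to degradation through TIR1, so the 0 h cells carry every allele of the 2.5 h cells and differ in the additions and in time. No culture was left untreated for 2.5 h; loss of Spt5, the additions themselves and the hours of growth cannot be told apart here.

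Spt5 is a subunit of DSIF, which travels with RNA polymerase II, helps it through nucleosomes and serves as a platform for capping, cleavage and chromatin factors. A short pulse of 4-thiouracil marks RNA made during the pulse, so the purified RNA reports synthesis more than the standing pool. The proteasome is a barrel that digests ubiquitin-tagged proteins, capped by a regulatory particle whose ring of ATPases unfolds them. The degron system works through that same machine. Core histone genes are transcribed in S phase, and septation genes later in the cell cycle.

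Counts summed to 17794017 and 11525663 in the 2.5 h libraries, against 29268534 and 35673601 in the 0 h libraries; 3 counts, the most that a count of 0 allows for, come to 0.169 and 0.26 CPM at 2.5 h, against 0.102 and 0.0841 CPM at 0 h. These limits cover counting error only. Levels are given as CPM, the counts of a unit relative to the TMM-scaled total of its library, per unit and not per length, so they compare a gene between libraries and not genes with each other. The 2 libraries of 0 h stood apart from each other: 513 coding units (11.6%) were at least 2-fold apart between them, against 36 between the 2.5 h libraries. For that reason each change is given as a log2 difference of the 2.5 h mean against 0 h replicate 1 and against 0 h replicate 2, beside the fitted log2 fold change over both. The sign of the change depended on which 0 h library was taken in 1538 coding units (34.7%). The median over all coding units was -0.11 against 0 h replicate 1, 0.04 against 0 h replicate 2 and -0.06 in the fit; the values carry no scaling to an added RNA standard, so all changes are relative to the rest of each library. Of the mating-type markers, mam1, which encodes the M-factor exporter of h- cells, had 120.0 and 124 CPM at 2.5 h, against 222 and 159.8 CPM at 0 h. The M-cell gene mam2 had 3.11 and 5.51 CPM at 2.5 h, against 6.73 and 1.58 CPM at 0 h. The M-cell gene mfm3 had 4.22 and 4.82 CPM at 2.5 h, against 0.47 and 0.201 CPM at 0 h. The gene map3, a receptor gene known from P cells, had 18.3 and 20.6 CPM at 2.5 h, against 12.7 and 19.4 CPM at 0 h. Reads of map3 were thus counted in every one of these libraries, beside those of the M-cell genes. As these levels do not compare genes with each other, they do not settle the cell type. The other markers of either type have no unit of their own in the table.

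The transcript of spt5 (SPAC23C4.19, chromosome I, 1063747 to 1066940, plus strand, ASM294v2) checks the labels. It had 121 and 108 CPM at 2.5 h, against 1045 and 721 CPM at 0 h. Both 2.5 h libraries lay far below both 0 h libraries, and the difference was -3.19 against 0 h replicate 1 and -2.66 against 0 h replicate 2, with a fitted log2 fold change of -2.95 (SE 0.22, edgeR adjusted p = 0.00468) in the quasi-likelihood test of edgeR. Adjusted p-values, here and below, come from this test with Benjamini-Hochberg correction over all units tested. Without 2.5 h replicate 2 the value was -2.88 with an adjusted p of 0.0694.

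Across all units 642 of 5208 were called higher at 2.5 h (12.3%) and 266 lower (5.11%), at an adjusted p under 0.05. Among the 4436 coding units 334 were called higher (7.53%) and 261 lower (5.88%), with median log2 fold changes of 1.04 and -0.82. Both 2.5 h libraries lay above both 0 h libraries in 1095 coding units (24.7%) and below both in 1262 (28.4%), so a lack of overlap was common by itself. Set against 0 h replicate 1 alone, 15.2% of coding units were called higher and 24.0% lower; set against 0 h replicate 2 alone, 18.3% were called higher and 22.6% lower. In these fits the lone 0 h library shows no spread of its own and is assumed to vary like the others. Their spread comes from the 2.5 h and 4.5 h pairs, which were closer than the 0 h pair. How far this accounts for the higher counts was not tested. Calls of the main fit would tend to pass in these fits as well, so such agreement is no separate support. Some other coding units were called lower against replicate 1 and higher against replicate 2, and a few the other way round. At least 2-fold against both 0 h libraries were 134 of the higher and 36 of the lower calls. The calls rested on having both 2.5 h libraries. Without 2.5 h replicate 1 there were 74 coding calls, without 2.5 h replicate 2 there was 1, and with the 0 h and 2.5 h libraries alone in the fit there were 196. Counts within lists moved the same way: of the 41 lists described below with a call, 13 had none with the 2.5 h and 0 h libraries alone, 26 had none without 2.5 h replicate 1, and all 41 had none without 2.5 h replicate 2. With the 2.5 h and 0 h libraries alone 5 units of the proteasome regulatory particle and 3 of its core particle were called lower, and 7 meiosis, 5 splicing and 3 galactose units higher, while core histone, elongation factor and RNA polymerase II units had no call.

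**Figure D1:**
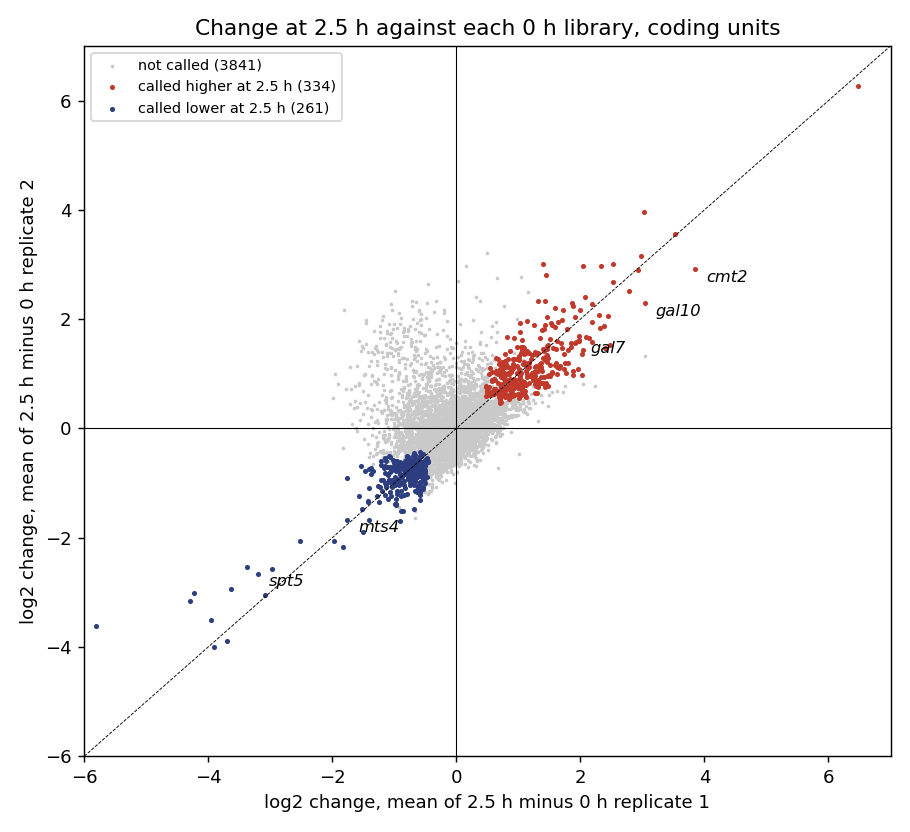
Each point is 1 coding unit; the x axis is the log2 change of the 2.5 h mean against 0 h replicate 1 and the y axis the same against 0 h replicate 2. Red units were called higher at 2.5 h (334), blue units lower (261) and grey units not (3841). Called units lie near the dashed line of equal change, while a cloud of grey units at the upper left is below 0 h replicate 1 and above 0 h replicate 2.

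Genes of the proteasome fell, and their 2 lists had the largest shares of units called lower among the 43 lists examined. Of 22 units of the regulatory particle 9 were called lower and 0 higher, and of 14 units of the core particle 7 were called lower and 0 higher, beside 5.88% of coding units called lower. At an unadjusted p under 0.05 edgeR had 13 and 10 of them lower and 0 and 0 higher, and DESeq2 called 13 and 9 lower and 0 and 0 higher. The median log2 change of the regulatory particle was -0.68 against 0 h replicate 1 and -0.47 against 0 h replicate 2; that of the core particle was -0.76 and -0.53 in the same order. The largest fall among the genes eligible to be named, by the smaller of the changes against either 0 h library, was in mts4 (SPBP19A11.03c, chromosome II, 2851213 to 2854095, minus strand, ASM294v2), which encodes the scaffold subunit Rpn1 that docks ubiquitin receptors on the cap. It had 211 and 214 CPM at 2.5 h, against 719 and 676 CPM at 0 h. The 0 h libraries were close to each other here, and the groups did not overlap, which the naming rule required. The difference was -1.76 against 0 h replicate 1 and -1.67 against 0 h replicate 2, with a fitted log2 fold change of -1.72 (SE 0.14, edgeR adjusted p = 0.00468).

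The Rpt ATPases, the ring that unfolds substrates and feeds them into the barrel, were called lower in all 6 of their genes, with fitted log2 fold changes between -1.36 and -0.78. This subgroup was set apart after its values were seen. In rpt6 the level was 71.6 and 55.5 CPM at 2.5 h, against 169 and 158 CPM at 0 h, a log2 change of -1.42 against 0 h replicate 1 and -1.33 against 0 h replicate 2. In rpt5 it was 218 and 223 CPM at 2.5 h, against 473 and 542 CPM at 0 h, with changes of -1.10 and -1.30 in the same order. The other 4 changed by -1.13 and -1.04 (rpt2), -1.02 and -0.73 (rpt4), -1.03 and -0.70 (rpt3) and -0.92 and -0.64 (rpt1) against replicates 1 and 2 of 0 h. In the barrel itself 5 of 7 alpha-ring genes were called lower, against 2 of 7 of the beta ring, which holds the protease sites; whether the rings differ was not tested. The alpha-ring gene pre6 had 54.3 and 49.8 CPM at 2.5 h, against 139 and 132 CPM at 0 h, and its fitted log2 fold change was -1.38 (SE 0.14, edgeR adjusted p = 0.00534). The alpha-ring genes pre10 and pre5 changed by -1.28 and -1.23 and by -1.04 and -0.94 against replicates 1 and 2. The groups did not overlap in any of these, which the naming rule required of those among the largest falls. The 3 other called units were mts4 and the near-identical pair rpn502 and rpn501, which encode the lid subunit Rpn5; reads of the pair could be split between the copies, so the values of -1.20 and -1.15 for rpn502 and -0.91 and -0.90 for rpn501 are uncertain one by one. Of the 36 proteasome units, 6 had opposite signs against the 2 libraries of 0 h, among them dss1 (-0.43 and 0.49) and rpn1302 (-0.61 and 0.52).

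**Figure D2:**
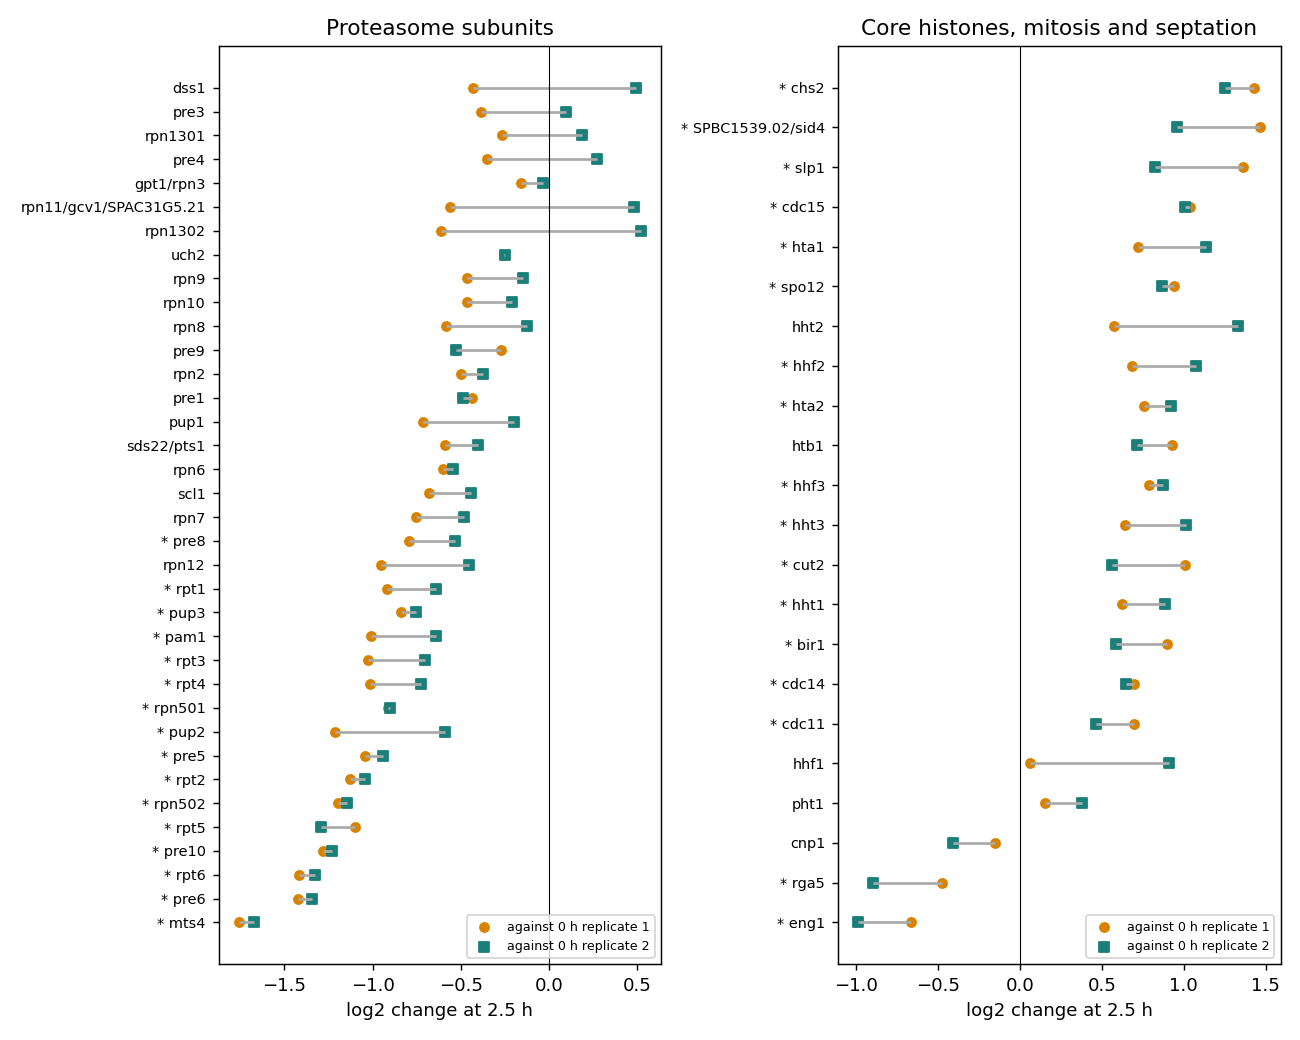
The left panel shows all 36 proteasome units, and the right panel all 11 core histone units with 11 called units of mitosis and septation; the x axis is the log2 change of the 2.5 h mean against 0 h replicate 1 (circles) and replicate 2 (squares), and an asterisk marks units called at an adjusted p under 0.05. The called proteasome units are left of 0 against both 0 h libraries, with mts4 the lowest.

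Of 23 units for ubiquitin enzymes and other helpers of the proteasome 2 were called lower and 1 higher, beside 5.88% of coding units called lower and 7.53% higher. Scaled by library totals in place of TMM, 0 were called lower and 1 higher. The gene of the ubiquitin-activating enzyme E1, uba1, changed by -0.63 and -0.68 and that of Npl4, a partner of the segregase Cdc48, by -0.54 and -0.81 against replicates 1 and 2. The E3 ligase gene ubr1, of the N-end rule, was called higher. It had 1161 and 1414 CPM at 2.5 h, against 490.1 and 621 CPM at 0 h, without overlap, and a fitted log2 fold change of 1.21 (SE 0.20, edgeR adjusted p = 0.0123).

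The remaining large falls were in genes of several roles. The rule that named them required no overlap between the groups, so the lack of overlap given for them was fixed by the choice. Among them were ppr8, which encodes a PPR-repeat RNA-binding protein, slm3, for a tRNA thiolation enzyme, and gta2, for a subunit of glutamyl-tRNA amidotransferase. The ppr8 unit had 142 and 136 CPM at 2.5 h, against 371 and 447 CPM at 0 h, a change of -1.42 against 0 h replicate 1 and -1.69 against 0 h replicate 2. The slm3 unit had 18.5 and 20.5 CPM at 2.5 h, against 43.4 and 45.4 CPM at 0 h, and the gta2 unit 6.05 and 6.89 CPM at 2.5 h, against 19.3 and 15.4 CPM at 0 h. In all 3 the 2.5 h libraries were the 2 lowest, with changes of -1.15 and -1.22 for slm3 and -1.57 and -1.25 for gta2. The gene pcl1, for an Fe(2+) transporter, had 89.7 and 94.6 CPM at 2.5 h, against 194 and 208 CPM at 0 h, and mtm1, annotated as a manganese transporter gene, had 31.2 and 29.8 CPM at 2.5 h, against 72 and 64.5 CPM at 0 h. The pcl1 change was -1.13 (SE 0.14, edgeR adjusted p = 0.00677) and that of mtm1 -1.16 (SE 0.15, edgeR adjusted p = 0.00739), with no overlap of the groups in either. The gene of the lipid transfer protein Osh6 had 241 and 212 CPM at 2.5 h, against 542 and 468 CPM at 0 h, a change of -1.26 and -1.05 against replicates 1 and 2. At low levels, alr2, for alanine racemase, had 2.72 and 2.58 CPM at 2.5 h, against 7.81 and 7.56 CPM at 0 h and a fitted log2 fold change of -1.53 (SE 0.26, edgeR adjusted p = 0.0138). The unit of wtf21, a member of the wtf family of meiotic drivers whose copies are similar in sequence, was at 3.94 and 3.36 CPM at 2.5 h, against 8.75 and 9.39 CPM at 0 h; its reads may be shared with other copies.

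Among genes for building ribosomes more units were called lower than higher. Over all coding units 5.88% were called lower and 7.53% higher, the shares to set beside each list in this paragraph. Of 107 ribosome biogenesis units 16 were called lower and 1 higher, with a median of -0.24 against 0 h replicate 1 and -0.22 against 0 h replicate 2. Called or not, 82 of the 107 had a negative fitted log2 fold change and 25 a positive one. With library totals 7 were called lower and 0 higher, and with the 2.5 h and 0 h libraries alone 2 lower and 0 higher. The helicase gene dbp3 led with 53.9 and 65.7 CPM at 2.5 h, against 158 and 127 CPM at 0 h and a fitted log2 fold change of -1.25 (SE 0.19, edgeR adjusted p = 0.0104). The pescadillo gene ppp1 had 116 and 119 CPM at 2.5 h, against 227 and 232 CPM at 0 h, a change of -0.95 and -0.98 against replicates 1 and 2, and the helicase gene dbp8 changed by -0.97 and -0.78. The groups did not overlap in these 3 genes, which the naming rule required of dbp3. The 1 unit called higher holds noc202 with hrd302, another gene, so its counts cannot be assigned to either. Of 20 subunit genes of RNA polymerases I and III, 2 were called lower and 0 higher by edgeR (6 and 1 at an unadjusted p under 0.05, and 5 and 0 by DESeq2), namely rpa49 (-0.90 and -0.83) and rpc40 (-1.16 and -0.55), and the list median was -0.20 and -0.32, again against replicates 1 and 2. Nuclear transport had 4 of 37 units called lower and 0 higher by edgeR (10 and 4 at an unadjusted p under 0.05, and 5 and 1 by DESeq2), with medians of -0.26 and -0.16. With library totals 1 was called lower. They included the importin alpha gene imp1 (-0.81 and -0.71) and the karyopherin genes kap109 (-0.63 and -0.89) and sal3 (-0.68 and -0.58). In secretory traffic 6 of 105 units were called lower, near the 5.88% of all coding units, and 3 higher; the coatomer gene ret3 was at -1.14 and -0.82.

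In the list of iron, copper and zinc genes 6 of 30 units were called lower (20.0%) and 2 higher (6.67%), beside 5.88% and 7.53% of all coding units. The list medians were -0.13 and -0.37 against replicates 1 and 2. With library totals 3 were called lower and 1 higher. Besides pcl1, they included grx4, of the glutaredoxin that senses iron with Fep1 and Php4, with 103 and 94.1 CPM at 2.5 h, against 164 and 181 CPM at 0 h. The copper transporter gene ctr4 had 161 and 148 CPM at 2.5 h, against 247 and 429 CPM at 0 h. Its 0 h libraries were themselves far apart, so the fall was -0.68 against 0 h replicate 1 and -1.47 against 0 h replicate 2. Of the ctr4 unit 46.2% lies opposite TU.6619, which was called higher. The 2 units of this list called higher were fio1 (0.64 and 1.30) and fip1 (0.63 and 0.73). They encode the multicopper oxidase and the permease of high-affinity iron uptake, and are named after their values were seen.

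The largest rises were in genes of low level. The largest rise among the genes eligible to be named was in cmt2 (SPBPB21E7.04c, chromosome II, 64597 to 65534, minus strand, ASM294v2), annotated as a catechol O-methyltransferase gene. It had 10.8 and 16.4 CPM at 2.5 h, against 0.832 and 1.68 CPM at 0 h, which is 3.86 against 0 h replicate 1 and 2.92 against 0 h replicate 2, with a fitted log2 fold change of 3.40 (SE 0.42, edgeR adjusted p = 0.00677). Of 4 galactose units 3 were called higher, beside 7.53% of coding units. The fourth, gms1, for the Golgi transporter of UDP-galactose, lay the other way with 128 and 123 CPM at 2.5 h, against 143 and 146 CPM at 0 h and was not called. The epimerase gene gal10 (chromosome II, 4484857 to 4487515, minus strand) had 87.4 and 111 CPM at 2.5 h, against 11.9 and 20.1 CPM at 0 h. The uridylyltransferase gene gal7 (chromosome II, 4482540 to 4483684, minus strand) had 69.8 and 81.9 CPM at 2.5 h, against 19 and 24.7 CPM at 0 h, and the galactokinase gene gal1 (chromosome II, 4488313 to 4490147, plus strand) had 64.9 and 71.6 CPM at 2.5 h, against 32.4 and 30.2 CPM at 0 h. The 3 genes lie side by side on chromosome II and no unit of the deposited table overlaps them on the other strand, although RefSeq places tgd1 opposite gal10. The groups of the 3 genes did not overlap, which the naming rule required of gal10 and gal7. The changes were 3.04 and 2.29 for gal10, 1.98 and 1.61 for gal7 and 1.07 and 1.17 for gal1 against replicates 1 and 2 of 0 h.

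Among the other leading rises without a unit on the other strand were mis20, a gene of chromosome segregation, with 22.8 and 27.9 CPM at 2.5 h, against 5.46 and 5.1 CPM at 0 h, and dbl7, with 57.8 and 70.1 CPM at 2.5 h, against 11.6 and 15.2 CPM at 0 h. The gene ddr48 had 35.8 and 34.3 CPM at 2.5 h, against 8.17 and 10.9 CPM at 0 h, and ppt2, for an acyl-carrier-protein synthase, had 9.5 and 13.1 CPM at 2.5 h, against 3.51 and 2.81 CPM at 0 h. Each of the 4 lay above both 0 h libraries in both 2.5 h libraries, which the naming rule required. The fitted log2 fold changes were 2.26 (SE 0.27, edgeR adjusted p = 0.0066) for mis20, 2.25 (SE 0.21, edgeR adjusted p = 0.00513) for dbl7, 1.87 (SE 0.21, edgeR adjusted p = 0.00584) for ddr48 and 1.83 (SE 0.27, edgeR adjusted p = 0.00996) for ppt2.

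The other leading rises given here lie opposite another unit. The strand setting of the counting is not given in the sources used here, so reads of such pairs may not be fully told apart. Of 334 coding units called higher 90 (26.9%) were overlapped over at least 50% of their length by a unit on the other strand, against 13 of the 261 called lower (4.98%) and 406 of 3841 not called (10.6%). Read the other way, 17.7% of coding units with such an overlap were called higher and 2.55% lower, beside 5.05% and 7.14% of those with no overlap. The share called higher was thus larger, and the share called lower smaller, among overlapped units; the part of shared reads in this was not tested. The values of the partners can be set beside those of the leading genes. The folate enzyme gene fau1, overlapped over 97.4%, had 48.5 and 57.5 CPM at 2.5 h, against 9.04 and 6.48 CPM at 0 h, while acl1 on the other strand had 409.7 and 364 CPM at 2.5 h, against 693 and 296 CPM at 0 h. The gene of the LYR protein lyr3 lies wholly inside SPAC806.06c, yet had 87.3 and 103 CPM at 2.5 h, against 21.3 and 29.9 CPM at 0 h, where that partner had 165 and 155 CPM, against 158 and 164 CPM. In both pairs the member with few reads changed and its more abundant partner was not called.

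The methyltransferase gene hen1, of which 65.1% overlaps cdc6, had 11.4 and 14.9 CPM at 2.5 h, against 1.63 and 1.66 CPM at 0 h, a change of 2.93 against 0 h replicate 1 and 2.91 against 0 h replicate 2. The mitochondrial ribosomal protein gene sws2, overlapped by vid21 over 93.4%, had 162 and 168 CPM at 2.5 h, against 50.6 and 41.4 CPM at 0 h. In both the 2.5 h libraries were again the 2 highest, which the naming rule required. Their partners were not called, with log2 fold changes of 0.49 for cdc6 and 0.31 for vid21. The mug2 gene (overlap 66.3%) changed by 1.98 and 1.70 and the splicing factor gene tls1 (49.2%) by 1.98 and 1.62 against replicates 1 and 2.

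**Figure D3:**
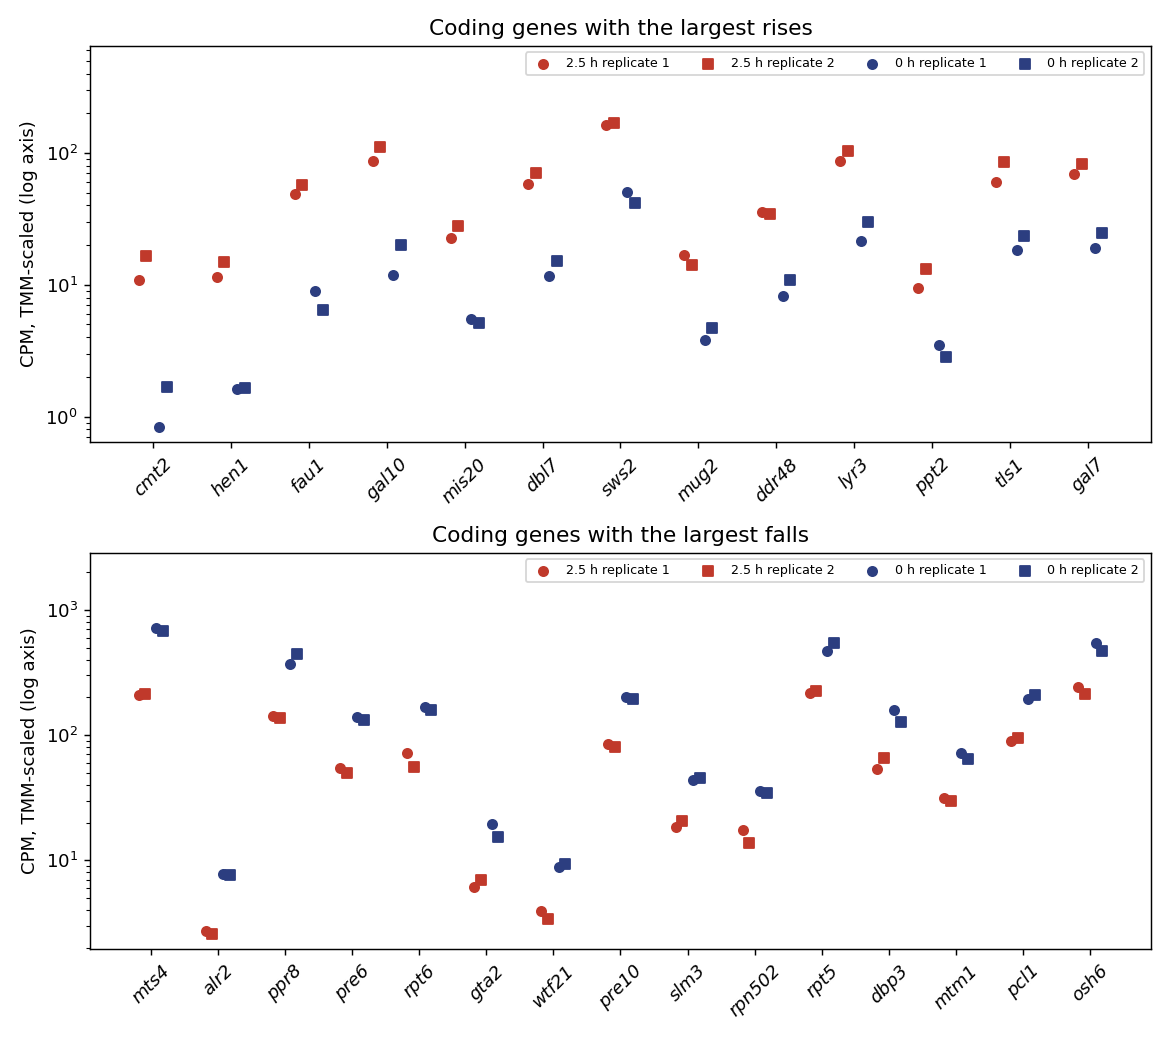
CPM after TMM scaling on a log axis in the 2.5 h libraries (red) and the 0 h libraries (blue), circles for replicate 1 and squares for replicate 2, for 13 of the 15 largest rises (top) and the 15 largest falls (bottom) among genes eligible to be named, by the smaller of the changes against either 0 h library. The groups do not overlap in any of the 28 genes, which the choice of these genes fixes; mts4 sits at 211 and 214 CPM at 2.5 h, against 719 and 676 CPM at 0 h.

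**Figure D4:**
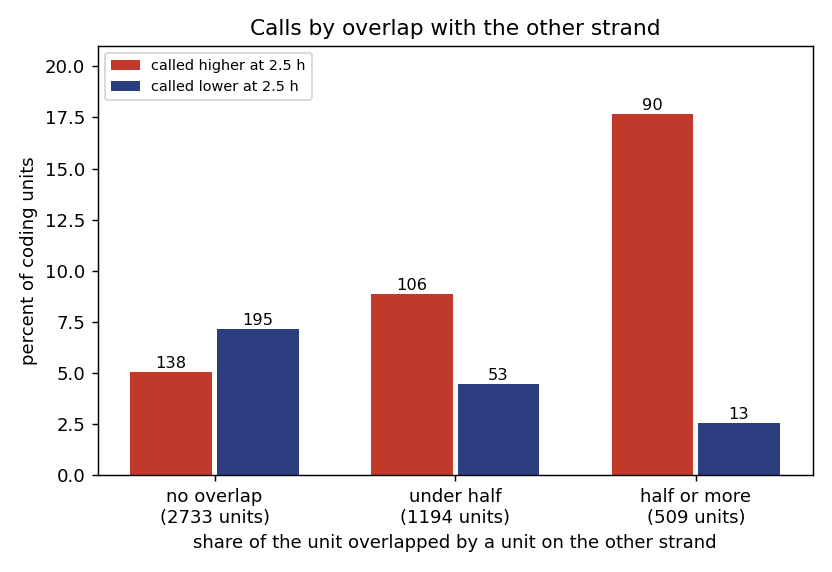
Bars give the percent of coding units called higher (red) and lower (blue) at 2.5 h among units with no overlap on the other strand, with less than 50% of their length overlapped, and with 50% or more; numbers above the bars are units. The share called higher is 17.7% at an overlap of 50% or more and 5.05% without overlap.

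Of 11 core histone units 6 were called higher and 0 lower by edgeR (8 and 0 at an unadjusted p under 0.05, and 8 and 0 by DESeq2), beside 7.53% of coding units called higher, with a median of 0.64 against 0 h replicate 1 and 0.91 against 0 h replicate 2. The H4 gene hhf3 had 131 and 161 CPM at 2.5 h, against 83.9 and 79.2 CPM at 0 h, a change of 0.84 (SE 0.16, edgeR adjusted p = 0.0189). The H2A gene hta2 had 408 and 486 CPM at 2.5 h, against 263 and 235 CPM at 0 h, and the H2A gene hta1 had 610.4 and 638 CPM at 2.5 h, against 379 and 284 CPM at 0 h, where 65.3% of its unit is overlapped on the other strand, in part by the H2B gene htb1. The changes were 0.76 and 0.92 for hta2 and 0.72 and 1.14 for hta1 against replicates 1 and 2. The other called units were the H3 genes hht1 (0.62 and 0.89) and hht3 (0.64 and 1.02) and the H4 gene hhf2 (0.69 and 1.08). The units of hht2 (0.57 and 1.33) and htb1 (0.93 and 0.72) did not pass. The H4 gene hhf1 did not pass either, with a smaller fitted log2 fold change of 0.43. The variants cnp1, for the centromeric H3, and pht1, for H2A.Z, were at -0.15 and -0.41 and at 0.15 and 0.38. The H3 genes, and likewise the H4 genes, encode near-identical RNAs, so single values are uncertain. With the 2.5 h and 0 h libraries alone, or without any 1 library of 2.5 h or 4.5 h, 0 of the 11 histone units passed. The median fitted log2 fold change over the 11 was 0.83 with the 2.5 h and 0 h libraries alone and 0.84 with all 6. The share of cells in S phase was not measured.

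All 6 called histone genes carry AACCCT, the element known from fission yeast histone promoters, within 250 bases before to 50 bases after their annotated start. In all, 9 of the 11 promoters hold it on either strand, beside 496 of 5112 promoters (9.70%). The letters around the first copy are shown because the element recurs in the same form at these histone loci; bases come from the RefSeq annotation of ASM294v3, and capitals mark the match.
hht1 (chrI:4699637-4699672, plus strand): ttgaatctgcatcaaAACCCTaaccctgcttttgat
hta2 (chrI:4053362-4053397, minus strand): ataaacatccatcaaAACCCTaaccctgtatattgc
hhf2 (chrII:1365051-1365086, minus strand): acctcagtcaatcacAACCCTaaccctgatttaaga
hhf3 (chrII:3529612-3529647, plus strand): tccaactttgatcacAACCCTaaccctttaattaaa
In each window a second copy follows directly. The longer string ATCANAACCCTAACCCT, in which N is any base, is on either strand in 10 of 5112 promoters (0.196%), and 9 of these are the histone promoters. They come from 5 loci, since hhf1 and hht1, hhf2 and hht2, hhf3 and hht3, and hta1 and htb1 are divergent pairs that share the stretch between them. The other promoter is that of bdf2, a bromodomain gene, whose unit had 1114 and 1205 CPM at 2.5 h, against 807 and 1174 CPM at 0 h and was not called. The short box is in 9.83% of promoters of single-gene units called higher, 7.11% of those called lower and 10.5% of those not called.

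Genes of mitosis and septation included calls in both directions, with the share called lower near that of all coding units. Of 52 units 9 were called higher (17.3%) and 3 lower (5.77%), beside 7.53% and 5.88% of all coding units. The list medians were 0.10 and -0.09 against replicates 1 and 2. With DESeq2 size factors 5 were called higher and 3 lower, with library totals 4 and 2, and with the 2.5 h and 0 h libraries alone 3 and 0. The rises included cdc15, which encodes the F-BAR protein of the contractile ring, and chs2, for a chitin synthase-like protein of the septum. The cdc15 unit had 352 and 395 CPM at 2.5 h, against 181 and 185 CPM at 0 h, nearly the same change against either 0 h library, 1.04 and 1.01. The chs2 unit had 139.7 and 171 CPM at 2.5 h, against 57.4 and 64.7 CPM at 0 h and a fitted log2 fold change of 1.35 (SE 0.16, edgeR adjusted p = 0.00667). The falls included eng1, for the endoglucanase that cuts the septum (-0.67 and -0.99). Other called rises were slp1, the Cdc20 homologue (1.36 and 0.83), spo12 (0.94 and 0.87), the securin gene cut2 (1.01 and 0.56) and the survivin gene bir1 (0.90 and 0.59); the genes of this list beyond cdc15 and chs2 are named after their values were seen. The groups did not overlap in cdc15 or chs2.

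The fork-head core GTAAACA, bound by Sep1 and Fkh2 upstream of mitotic genes, is in 23 of 45 single-gene promoters of this list, beside 844 of 5112 promoters (16.5%). With the letters, 6 units were called higher and 2 lower; without them, 2 higher and 1 lower. Windows of cdc15 and chs2 among the rises and eng1 among the falls are shown because the same core stands before genes that moved in opposite directions.
cdc15 (chrI:1402963-1402999, minus strand): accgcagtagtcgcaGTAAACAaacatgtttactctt
chs2 (chrII:1095115-1095151, plus strand): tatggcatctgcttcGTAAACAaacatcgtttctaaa
eng1 (chrI:998419-998455, plus strand): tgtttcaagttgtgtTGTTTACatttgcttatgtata
In eng1 the match is on the other strand. Over all promoters the core was in similar shares of units called higher (16.9%) and called lower (17.0%), beside 15.8% of those not called.

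Some genes named for meiosis rose in these vegetative cultures. Of 88 tested units 14 were called higher (15.9%) and 0 lower by edgeR (23 and 3 at an unadjusted p under 0.05, and 15 and 2 by DESeq2). Among all coding units 7.53% were called higher and 5.88% lower. The list median was 0.30 against 0 h replicate 1 and 0.13 against 0 h replicate 2. The largest changes were at low levels: atf31, for a transcription factor, had 4.5 and 6.03 CPM at 2.5 h, against 0.362 and 0.352 CPM at 0 h and lies wholly opposite rdh54. The telomere bouquet gene bqt1 had 4.83 and 5.34 CPM at 2.5 h, against 0.832 and 1.71 CPM at 0 h, with 55.1% opposite cfr1, and mug2 had 16.8 and 14 CPM at 2.5 h, against 3.83 and 4.67 CPM at 0 h. In each the 2.5 h libraries were the 2 highest, which the naming rule required of mug2. The regulator gene mei4, named after its value was seen and with no unit opposite, changed by 1.42 and 0.82. In the mating list 4 of 20 units were called higher and 1 lower. With the replicate number as a block 3 were called higher and 4 lower. The MAP kinase kinase kinase gene byr2 had 38 and 41.7 CPM at 2.5 h, against 14.9 and 20.6 CPM at 0 h, the conjugation gene prm1 changed by 1.26 and 1.39, and mfm3, for the M-factor precursor, had 4.22 and 4.82 CPM at 2.5 h, against 0.47 and 0.201 CPM at 0 h with 91.1% of its unit opposite a noncoding one.

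How far stress genes lay above 0 h depended on the 0 h library. In the core stress list 5 of 23 units were called higher (21.7%) and 1 lower (4.35%), beside 7.53% and 5.88% of all coding units. The list median was 0.76 against 0 h replicate 1 and 0.22 against 0 h replicate 2. With library totals 3 were called higher and 0 lower, and with the replicate number as a block 8 and 1. The small heat shock gene hsp9 rose against both: it had 766 and 1066 CPM at 2.5 h, against 281 and 308 CPM at 0 h, a change of 1.68 and 1.55 and a fitted value of 1.64 (SE 0.21, edgeR adjusted p = 0.00767). The aes1 unit had 233 and 239 CPM at 2.5 h, against 99.1 and 63.7 CPM at 0 h, and the ish1 unit, which also holds a noncoding RNA, 1115 and 1270.3 CPM at 2.5 h, against 357 and 562 CPM at 0 h. The 1 fall was ntp1, for neutral trehalase (-0.60 and -1.05). Of 21 genes tied to the factor Pap1, 4 were called higher and 1 lower (medians 0.63 and 0.19). The quinone reductase gene obr1, 48.2% overlapped on the other strand, had 899 and 1144 CPM at 2.5 h, against 374 and 371 CPM at 0 h. The osr2 unit changed by 1.78 and 1.01. The fall was gcs1, for the first enzyme of glutathione synthesis, with 166 and 172 CPM at 2.5 h, against 314 and 375 CPM at 0 h. In the heat shock list of 23 units hsp9 was the 1 called higher, and aha1, for a partner of Hsp90 (fitted log2 fold change -0.95), and mas5, for an Hsp40 (-0.64), were the 2 called lower; with the replicate number as a block mas5 did not pass (edgeR adjusted p = 0.0673).

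Genes of the transcription machinery had a few calls in either direction, beside 7.53% of all coding units called higher and 5.88% called lower. In RNA polymerase II, the largest subunit gene rpb1 had 950.0 and 796 CPM at 2.5 h, against 1495 and 1338 CPM at 0 h, and rpb11 changed by -0.80 and -0.60, both called lower; with the replicate number as a block rpb11 did not pass (edgeR adjusted p = 0.0547). The rpb3 gene was called higher, at 0.61 and 0.90, with 51.5% of its unit opposite trp3. Those are 1 rise (8.33%) and 2 falls (16.7%) among 12 subunit units. Of 31 elongation factor units 3 were called higher (9.68%) and 2 lower (6.45%), near the shares of all coding units. With DESeq2 size factors 1 was called higher and 2 lower, and with library totals 0 higher and 1 lower. The Paf1-associated gene prf1, whose protein binds Spt5 in its phosphorylated form, had 212 and 195 CPM at 2.5 h, against 327 and 372 CPM at 0 h, and its fitted log2 fold change was -0.78 (SE 0.15, edgeR adjusted p = 0.0188). The histone chaperone gene spt2 was at 1.48 and 0.78 and the elongation factor gene ell1 at 0.91 and 0.63. Of 53 Mediator and general factor units 6 were called higher (11.3%) and 2 lower (3.77%). With DESeq2 size factors 3 were called higher and 3 lower, and with library totals 3 and 1. The TFIIA gene toa1 had 82 and 73.1 CPM at 2.5 h, against 152 and 149 CPM at 0 h; the unit of taf13 with a noncoding RNA changed by 1.88 and 2.24 and srb6, of which 77.3% lies opposite prp19, by 1.46 and 2.03.

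Of 91 splicing units 8 were called higher and 4 lower, near the shares of all coding units (7.53% and 5.88%). The factor gene saf1 had 52.9 and 50.4 CPM at 2.5 h, against 18.6 and 18.1 CPM at 0 h with no unit opposite, and prp17 (1.10 and 1.21) and prp3 (1.25 and 1.02) rose with 89% and 68.5% of their units overlapped. In termination and decay 4 of 49 units were called higher and 4 lower, against 2 and 5 with DESeq2 size factors and 1 and 3 with library totals. The exosome nuclease gene dis3 had 112 and 115 CPM at 2.5 h, against 212 and 182 CPM at 0 h, whereas the exosome ring gene rrp45 had 44 and 50.6 CPM at 2.5 h, against 29.6 and 30 CPM at 0 h. The cleavage factor gene cft2 changed by 0.76 and 1.00. In genome maintenance 3 of 63 repair and checkpoint units and 1 of 34 replication units were called higher by edgeR, and 0 of either list lower (8 and 7 at an unadjusted p under 0.05, and 3 and 1 by DESeq2). The mismatch repair gene msh6 had 646 and 747 CPM at 2.5 h, against 236 and 249 CPM at 0 h with a fitted log2 fold change of 1.52 (SE 0.16, edgeR adjusted p = 0.00538), no overlap between the groups and no unit opposite. The fork protection gene swi1, of which 69.1% lies opposite rad3, was at 0.71 and 0.66. The psf2 unit, which lies wholly opposite other genes, was at 0.86 and 0.85. Of 27 genes tied to MBF, the G1/S factor, ssb2 (1.12 and 1.38) and the cyclin gene cig2 (0.97 and 1.15) were called higher and ssb1 lower (-0.61 and -0.64), with 81.8% and 69.6% of the first pair overlapped. With the replicate number as a block 4 MBF units were called higher and 1 lower, 4 repair and checkpoint units higher and 1 lower, and 2 replication units higher and 0 lower. Heterochromatin genes had 3 of 29 units called higher, among them hrr1 (1.09 and 0.83), and clr2 called lower (-0.85 and -1.03). With library totals 1 was called higher and 1 lower. Units on the other strand overlap 73% of clr2, and 2 of them, TU.5011 and TU.5012, were called higher.

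Smaller lists had a few calls each, beside 7.53% of all coding units called higher and 5.88% called lower. Of 39 cell wall units 4 were called lower, with the glucanase gene exg3 at -0.98 and -1.38 and the epimerase gene uge1 at -1.08 and -0.94, and 2 higher. Of 43 actin and cytokinesis units scd1, for the activator of Cdc42, was called higher (1.24 and 0.91) and ain1, for alpha-actinin, lower (-0.78 and -0.89). With DESeq2 size factors 1 was called higher and 4 lower, and with the replicate number as a block 2 and 2. Of 23 microtubule units alp1 (1.09 and 0.86) and alp7 (1.05 and 0.63, 33.6% overlapped) were called higher and the crosslinker gene ase1 lower (-0.65 and -0.59). The unit opposite alp7, TU.1442, was called higher too. Of 28 autophagy units atg5 (1.36 and 1.20, 33.1% opposite prp39) and atg17 (0.86 and 0.78, 91.1% overlapped) were called higher and atg15 lower (-0.68 and -0.71). Among 16 nitrogen and permease units the oligopeptide transporter gene isp4 had 620.4 and 977 CPM at 2.5 h, against 212 and 394 CPM at 0 h, while the vacuolar transporter gene fnx2 had 35.7 and 37 CPM at 2.5 h, against 83 and 69.9 CPM at 0 h and the permease gene aat1 296 and 371 CPM at 2.5 h, against 609 and 611 CPM at 0 h. In that list 4 were called higher and 2 lower, but 1 higher and 3 lower with DESeq2 size factors or library totals. The glycerophosphodiester transporter gene tgp1 had 543 and 677 CPM at 2.5 h, against 226 and 120.3 CPM at 0 h, the 1 call among 12 phosphate units. The glycerol enzyme gene gut2 (1.67 and 1.15, 69.6% overlapped) was the 1 call among 17 glucose-repressed and glycerol units, and the transporter gene ght8 (0.57 and 0.87) that among 3 hexose transporter units; ght8 did not pass with the replicate number as a block (edgeR adjusted p = 0.0556).

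For several pathways the answer depended on which 0 h library was taken. The 141 cytoplasmic ribosomal protein units, whose paralogs are near-identical, had a median log2 change of -1.05 against 0 h replicate 1 and 1.39 against 0 h replicate 2: 94 were called lower and 2 higher against the first alone, 1 lower and 116 higher against the second alone. The median log2 difference of these units between 0 h replicates 1 and 2 was 2.43, and 130 of the 141 had opposite signs. In the fit over both 0 h libraries rps1401 (0.80 and 1.18, 99.3% opposite aar2) and rps2202 (0.74 and 0.81) were called, both higher, and 0 were called lower (1 at an unadjusted p under 0.05 and 1 by DESeq2). Glycolysis and fermentation had medians of -0.61 and 1.39 over 15 units, respiration -0.49 and 0.59 over 64, translation factors -0.86 and 0.10 over 42, and amino acid synthesis -0.56 and 0.26 over 73, against replicates 1 and 2. For purine synthesis the medians were -0.73 and 0.41 over 14 units, for pyrimidine and uracil genes -0.67 and 0.09 over 11, and for sterol and fatty acid genes -0.42 and 0.18 over 36. No direction for these pathways at 2.5 h can be read from such values.

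Within those pathways some genes were called in the fit over both 0 h libraries. Over all coding units the fit called 7.53% higher and 5.88% lower. The glyceraldehyde phosphate dehydrogenase gene gpd3 had 516 and 361 CPM at 2.5 h, against 159 and 61.3 CPM at 0 h; it was called higher (1.99 (SE 0.48, edgeR adjusted p = 0.0474)) although the 0 h libraries differed by more than 2-fold. The initiation factor genes tif301, for eIF3a, and tif212, for eIF2 beta, were called lower, with tif301 at 499.9 and 428 CPM at 2.5 h, against 1223 and 772 CPM at 0 h. Changes were -1.40 and -0.74 for tif301 and -1.53 and -0.69 for tif212. Of 73 amino acid synthesis units 8 were called lower and 4 higher, and the 3 with the largest change, those of his7 with gid2, of maa1 with mpr1, and of ser2 with pof9 and another gene, are each shared by several genes. Of 64 respiration units cox1101 (1.39 and 1.80, 35.1% overlapped), atp15 (1.01 and 1.33) and cox19 (0.91 and 1.27) were called higher and 1 was called lower. Of 36 sterol and fatty acid units lcf1 (-1.16 and -0.69) and are2 (-0.57 and -0.69) were called lower. Against 0 h replicate 1 alone cox19 did not pass (edgeR adjusted p = 0.0551). Of 50 mitochondrial ribosomal protein units 3 were called higher (6.0%, below the share of all coding units), led by mrps16 with 232 and 198 CPM at 2.5 h, against 77.4 and 78.7 CPM at 0 h. Of 34 mitochondrial import and protein quality units 2 were called higher. They were tim8 (1.04 and 1.49, 46.4% opposite trs33) and the unit of tim10 with a noncoding RNA (0.73 and 1.22). Of the 14 purine and 11 pyrimidine and uracil units edgeR called 0; DESeq2 called 2 and 1, and 3 and 1 had an unadjusted p under 0.05. The lowest adjusted p was 0.0594 for the unit of ade8, which it shares with another gene, and 0.143 for ura1.

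**Figure D5:**
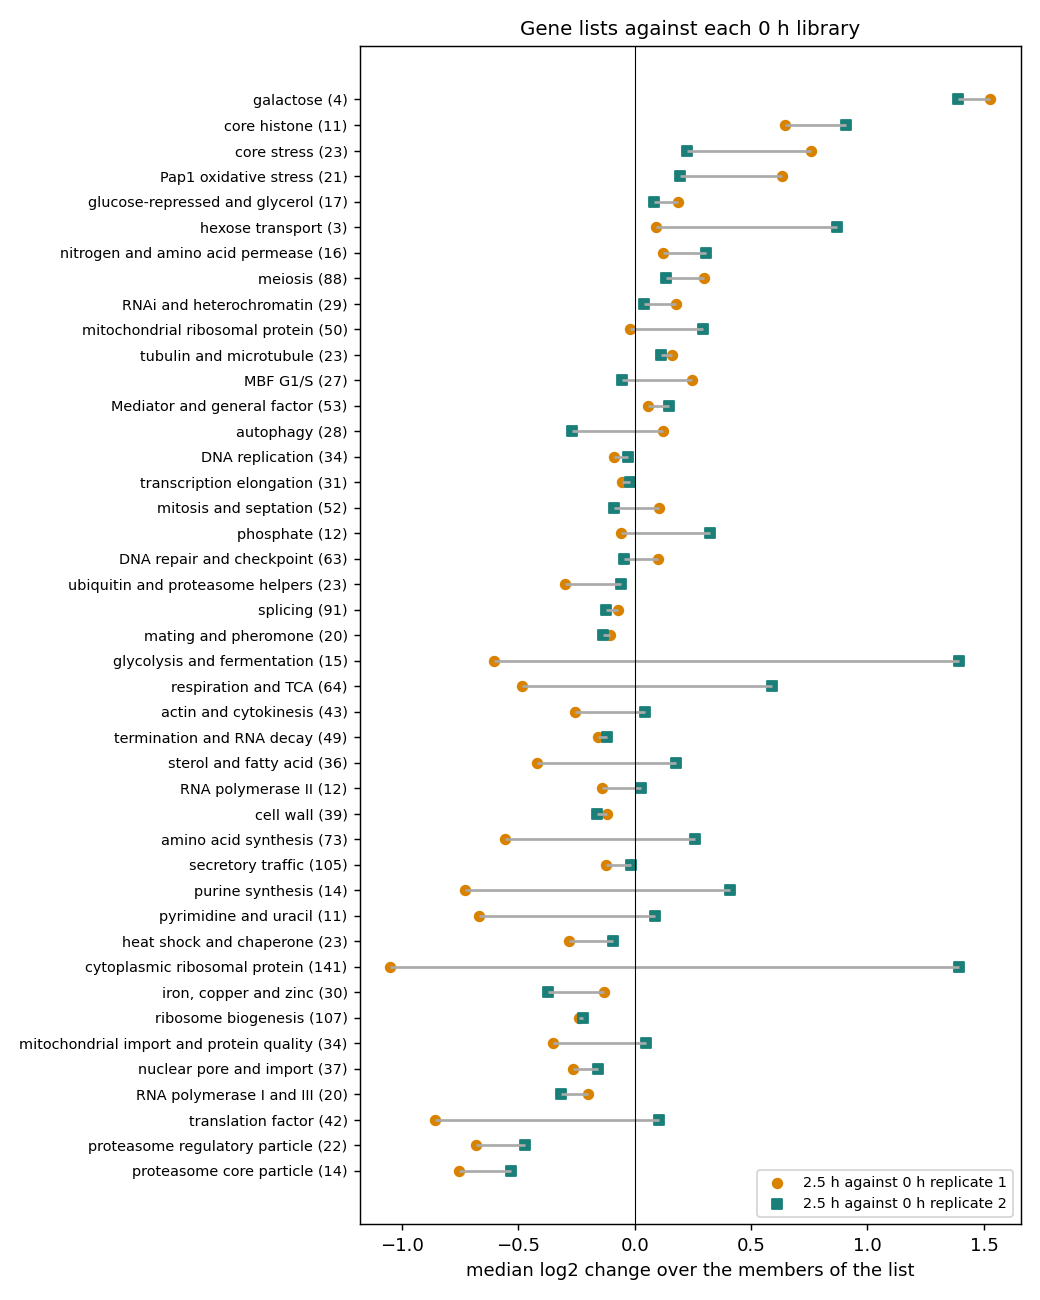
The x axis is the median log2 change of each of 43 gene lists at 2.5 h against 0 h replicate 1 (circles) and against 0 h replicate 2 (squares), with the number of tested units in parentheses, ordered by the median of the fitted values. Proteasome lists lie below 0 and the galactose and histone lists above 0 against either library, while ribosomal protein and glycolysis lists cross 0 with the longest bars.

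The called genes differed from the rest in what the lists did not use. Coding units called lower were the more abundant ones, with a median of 168 CPM at 0 h, against 82.3 CPM for units not called and 46.0 CPM for units called higher. An intron was annotated in 54.8% of units called lower, 51.2% of units not called and 42.2% of units called higher. Unit lengths were alike, with medians of 1902, 1840 and 1862 bases in the same order. By the authors' deposited synthesis time score, whose unit is not stated and which was used only to rank coding units, units called lower had a median percentile of 26.9, those not called 49.5 and those called higher 73.6. The percentiles of the deposited score for the life span of the RNA were 51.0, 50.8 and 43.2. A level at 0 h also enters the change itself, so these shares are descriptions and no test was made of them.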

How the data were processed

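Labelled RNA was purified and made into libraries with an Ovation Universal kit (NuGen), per the labels' protocols. The submitters' processing notes name the build ASM294v2, the aligner STAR 2.3.0 and SAMtools; how reads were counted, and with which strand setting, is not given in the sources used here. Raw read counts per transcription unit were deposited, as whole numbers without normalisation, and a table that the authors deposited gives the position, genes and kinetic score of each unit.

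Symbols, products and promoters came from the RefSeq annotation of ASM294v3, which 5037 of 5062 gene identifiers (99.5%) matched; unit coordinates stay those of ASM294v2. The test was edgeR 4.0.16 (R 4.3.3) with TMM scaling and low units removed by filterByExpr, as a robust quasi-likelihood fit of time point over all 6 libraries with 3 residual degrees of freedom; the code was tested on simulated data first. Changes against a single 0 h library are differences of log2 CPM (prior count 2) and carry no test; calls against a single 0 h library come from the fit without the other. Replicates differed by far more than counting error (chi-square per unit 84.8 at 2.5 h, 947 at 0 h and 24.7 at 4.5 h), so each was kept. P-values set each change against a spread pooled over all 6 libraries, not over those of 2.5 h and 0 h alone. The 4.5 h pair was the closest and the 0 h pair the furthest apart.

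Named genes were spt5, then the 15 largest rises and 15 largest falls among called single-gene coding units with a symbol, 50 or more counts on average and no overlap between the groups, ranked by the smaller of the changes against either 0 h library, then up to 3 called members of each of 43 lists (with none called, the lowest p). A list of thiamine genes was left aside, and 34 symbols were removed from lists because the annotated product is another protein. A few genes and sequences are not reported here. The comparison, lists and rule were chosen with earlier results of these data known. Motifs were sought on both strands. Same-numbered libraries deviated together to differing degrees (correlations 0.46, 0.209 and 0.103 for the 3 pairs of time points). With 2 libraries a time point their deviations mirror each other, so whether the numbers pair the samples stays uncertain. The main fit left pairing out, and a fit with the replicate number as a block is an alternative. The others were DESeq2 1.42.0, its size factors, library totals, no filter, a stricter filter, the 4 libraries of 2.5 h and 0 h alone, and each library left out.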

Additional observations from a re-analysis of the deposited data

How the results depend on the processing

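How many units were called changed with the choice of libraries. With the 0 h and 2.5 h libraries alone in the fit 420 units, 196 coding units and 60 units of the lists were called, against 908, 595 and 205 with all libraries. With 1 library left out they ranged from 1 to 2215 units, from 1 to 1818 coding units and from 0 to 719 listed units. The lowest of each came without 2.5 h replicate 2, where 1075 units still had an unadjusted p under 0.05, and the highest without 0 h replicate 1. Without 0 h replicate 2 there were 2160, 1742 and 712, without 2.5 h replicate 1 there were 183, 74 and 17, and without replicates 1 and 2 of 4.5 h 373 and 383, 166 and 174, and 53 and 54. Of the 123 called units that the naming rule took besides spt5, 0 passed without 2.5 h replicate 2, 29 without 2.5 h replicate 1 and 68 with 4 libraries; the 4-library fit has 2 residual degrees of freedom and the one-library fits assume that the lone library varies like the others. The log2 fold change of spt5 ranged from -3.20 to -2.76 with 1 library left out. With the replicate block 977 units, 645 coding units and 221 listed units were called, spt5 was at -2.93, and 120 of the 123 named units passed, all but mas5, rpb11 and ght8. With library totals 103 passed, with DESeq2 size factors 118, with the stricter filter 119, and with no filter or by DESeq2 123. DESeq2 size factors lowered the share of rises among listed calls to 42.5%, against 52.7% (88 higher and 119 lower, against 108 and 97), and among coding calls to 47.2%, against 56.1%. Depth limits the rises at low level: a unit at 0.832 CPM, as cmt2 in 0 h replicate 1, rests on 23 counts.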
